A study of Mus musculus with 2 samples.

Results

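Natural killer (NK) cells from the spleens of ad libitum fed mice were compared with NK cells from the spleen population that the deposit calls naive. Cells were taken by the authors' hashtag classification, with hashtag doublets left out, which gave 2622 cells of the 7479 singlets in the series. Of these, 1804 were ad libitum and 818 were naive. The C57BL/6 mice were 12 weeks old. Per the labels, mice received MC38, a mouse colon carcinoma line, under the skin and ate either ad libitum or on a cyclic fasting diet until the endpoint. The labels list the cell line as none or MC38 without tying either to a population. They do not define naive, and whether the naive mice carried a tumour, how those mice were fed and how many mice were pooled for each population were not stated. The sort gate was negative for lineage markers and positive for NK1.1 and for CD49b, an integrin encoded by Itga2. All populations were hashtagged, mixed and captured in 1 lane, so capture and sequencing were shared. Each population carried 1 hashtag and is 1 sample. There is therefore no replicate, and no p-value is given. Every interval below is a 95% interval for counting error, which leaves out variation between mice and between cells.

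NK cells are innate lymphocytes that kill stressed, infected or transformed cells by releasing perforin and granzymes, and that secrete interferon gamma and chemokines such as CCL3, CCL4 and CCL5. In the mouse they pass from CD27-positive stages, which express Tcf7 and Ltb, to CD11b-positive stages, which gain KLRG1, CX3CR1 and Ly6C. Type I interferon binds a receptor on these cells and switches on interferon-stimulated genes through factors that recognise the interferon-stimulated response element in their promoters. The question a comparison of fed with naive spleens addresses is not stated in the labels.

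Interferon-stimulated genes were among those with the highest ratios. Promoters of 3 genes of the type I interferon list are shown because they hold the element through which interferon acts on such genes. Of these, Isg15 had a log2 ratio of 0.74, past the fold of 0.5 used below. Ifi213 and Phf11b, at 0.27 and 0.26, were not past it. The promoter windows come from RefSeq on GRCm38.p6, the same assembly as mm10. Capitals mark the core of the interferon-stimulated response element, written as GAAA, any 2 bases and GAAA again. Where matches overlap, capitals mark their union. Each window reads 5′ to 3′ on the strand of its gene.
Isg15, chr4:156200856-156200915, minus strand: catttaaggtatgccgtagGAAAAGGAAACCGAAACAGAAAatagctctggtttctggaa
Ifi213, chr1:173599311-173599370, minus strand: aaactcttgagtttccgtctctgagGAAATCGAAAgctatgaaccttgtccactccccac
Phf11b, chr14:59341346-59341405, minus strand: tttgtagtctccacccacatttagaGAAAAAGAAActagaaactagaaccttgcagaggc
The Isg15 window holds 3 overlapping matches, the first of which begins 78 bases before the gene's start. Those of Ifi213 and Phf11b hold 1 match each, 73 and 50 bases before the start.

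The populations had 8855566 UMIs (unique molecular identifiers, each 1 captured transcript) in ad libitum cells and 3892761 in naive cells. The median cell held 4209.5 UMIs and 1608 genes in the ad libitum population, against 4363 UMIs and 1643.5 genes in the naive one. Mitochondrial genes took 2.94% of the UMIs of ad libitum cells and 3.22% of those of naive cells. NK markers were widespread, and 99.7% of ad libitum and 99.8% of naive cells had UMIs of at least 3 of 14. The 14 include abundant genes such as Gzma and Nkg7, so 3 are easily reached and the count alone does not settle identity. At least 3 markers of 1 other lineage were seen in 121 ad libitum cells (6.71%) and 59 naive cells (7.21%). Most of these met the T cell list, in 96 ad libitum and 48 naive cells, and NK cells are known to carry some T cell receptor constant-region transcripts. The summed T cell markers stood at 704 CPM (UMI counts scaled to a sum of 1000000 per population) in ad libitum cells and 693 CPM in naive cells, with Cd4 at 0 in both. Summed B cell markers stood at 97.3 and 94.0 CPM and summed monocyte or macrophage markers at 57.8 and 50.3 CPM in ad libitum and naive cells. The tumour or epithelial markers summed to 2.03 and 1.03 CPM, with Krt8, Krt19 and Cldn4 at 0.

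The profiles differed little. A difference is given as the log2 ratio of CPM + 5, ad libitum over naive, which understates the change of low genes. Genes had to reach 20 CPM in either population, which 5382 did. Their median log2 ratio was -0.01, and 90.9% of genes lay within 0.25 of 0. At a log2 ratio of 0.5 or more there were 20 genes higher in ad libitum cells (0.372% of those measured), and at -0.5 or less there were 4 lower (0.0743%). When totals were counted without ribosomal protein, mitochondrial and ribosomal RNA-collecting genes, the split was 15 higher and 6 lower. The share of all measured genes with a ratio above 0 was 47.0%, which is the background for the counts of list members below.

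**Figure D1:**
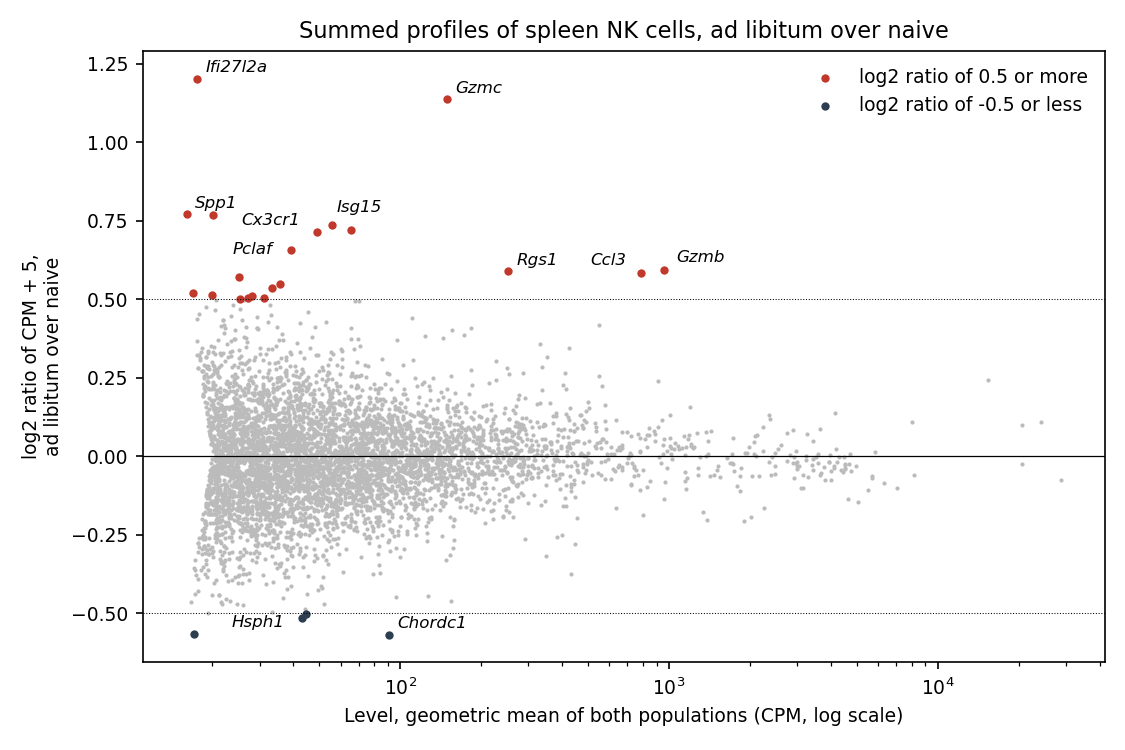
Each point is 1 of 5382 genes, placed by its level in CPM on a log scale and by its log2 ratio, ad libitum over naive. Dotted lines mark log2 ratios of 0.5 and -0.5, and 20 genes lie on or above the upper line (red) and 4 on or below the lower one (dark blue). Gzmb and Ccl3 are the most abundant of the coloured genes.

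The 20 higher genes were effector genes (Gzmc, Gzmb, Ccl3, Spp1, Vegfa), interferon-stimulated genes (Ifi27l2a, Isg15, Rtp4), surface receptors and enzymes (Cx3cr1, Cxcr4, Entpd1, F2r), signalling genes (Pmepa1, Rgs1, Cish, Phlda1), the replication factor gene Pclaf, and Erdr1, Cand1 and Ebag9. The 4 lower genes were the cochaperone gene Chordc1, the heat shock gene Hsph1, the cytokine gene Tnfsf14 and Fam177a. The cell with most UMIs of each gene was also left out of each population. By ratio alone, all 20 higher genes and 3 of the 4 lower ones then stayed past the fold. Fam177a moved to -0.49. With the 20 CPM minimum applied again, 19 of the 20 higher genes and 3 of the 4 lower ones stayed. With ad libitum cells weighted to the naive cluster shares, 12 of the 20 higher and 2 of the 4 lower genes stayed past the fold. Those that came to lie inside it included Gzmb at 0.47, Ccl3 and Cx3cr1 at 0.48 and Hsph1 at -0.49. With equally weighted clusters, 11 of the 20 and 3 of the 4 stayed past it. Those that did not included Gzmc at 0.22, Ccl3 at 0.37, Rgs1 at 0.39 and Erdr1 at 0.47. Isg15 stayed past the fold under every alternative run. Among the 4 spleen populations, which include the fasted and the refed one, the ad libitum population was the highest for 13 of the 20 genes and the naive population was the lowest for 14. Both held for 8 genes, and in the other 12 fasted or refed cells took at least 1 of these ends.

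Cytotoxic effectors were led by granzyme B. Gzmb, a serine protease that triggers apoptosis in the target cell (chr14:56258838-56262260, minus strand), stood at 1174 CPM (95% counting interval 1152 to 1197) in ad libitum cells, against 777 CPM (749 to 805) in naive cells. That is a log2 ratio of 0.59 (0.53 to 0.65), and fasted and refed cells lay between at 864 and 992 CPM. Prf1, which encodes the pore-forming perforin, stood at 372 CPM in ad libitum cells and 304 CPM in naive cells, a log2 ratio of 0.28. It moved to 0.15 when ad libitum cells were weighted to the naive population's shares of the authors' clusters. Gzma, the most abundant granzyme, stood at 16738 CPM in ad libitum cells and 14140 CPM in naive cells, a ratio of 0.24 that moved to 0.11 under the same weighting. Unc13d, needed for granules to fuse with the membrane, had a ratio of 0.43. Serpinb9, which shields the killer cell from its own granzyme B, stood at 275 CPM in ad libitum cells and 226 CPM in naive cells. Of 18 measured cytotoxic granule genes, 12 were higher in ad libitum cells and 2 of them, Gzmb and Gzmc, were past the fold. The list's median was 0.07, against -0.01 over all genes.

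Granzyme C had the largest fold of the effectors but rested on few cells. Gzmc (chr14:56231441-56234656, minus strand) stood at 225 CPM (215 to 235) in ad libitum cells, against 99.4 CPM (89.8 to 110) in naive cells, a log2 ratio of 1.14 (0.99 to 1.29). The refed population, at 226 CPM, was as high as the ad libitum one, and the fasted population stood at 110 CPM. A single ad libitum cell held 20.7% of that population's Gzmc UMIs and 10 cells held 63.9% of them, whereas 5 naive cells held 9.04% of the naive population's. The ratio moved to 0.89 without each population's highest cell and to 0.42 without the cells of the authors' clusters that were too small to compare. It turned to -0.14 when the 5% of cells with most UMIs in each population were left out. It stood at 314 CPM in ad libitum cells and 108 CPM in naive cells of cluster 1, but at 70.4 and 105.8 CPM in cluster 2, a ratio of -0.56. Clusters not compared held 41.8% of the Gzmc UMIs of ad libitum cells and 4.13% of those of naive cells. Of these clusters, 0, 8 and 11 were made up mostly of tumour-derived singlets over the whole series, at 86.0%, 84% and 95.5%. Cluster 10 was not, and it held the most cells of the clusters not compared, at 20 ad libitum and 14 naive cells. The Gzmc UMIs were not split between clusters 0, 8, 10 and 11, so which of them held the 41.8% is not known. The part of hashtag assignment in the result was not tested.

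**Figure D2:**
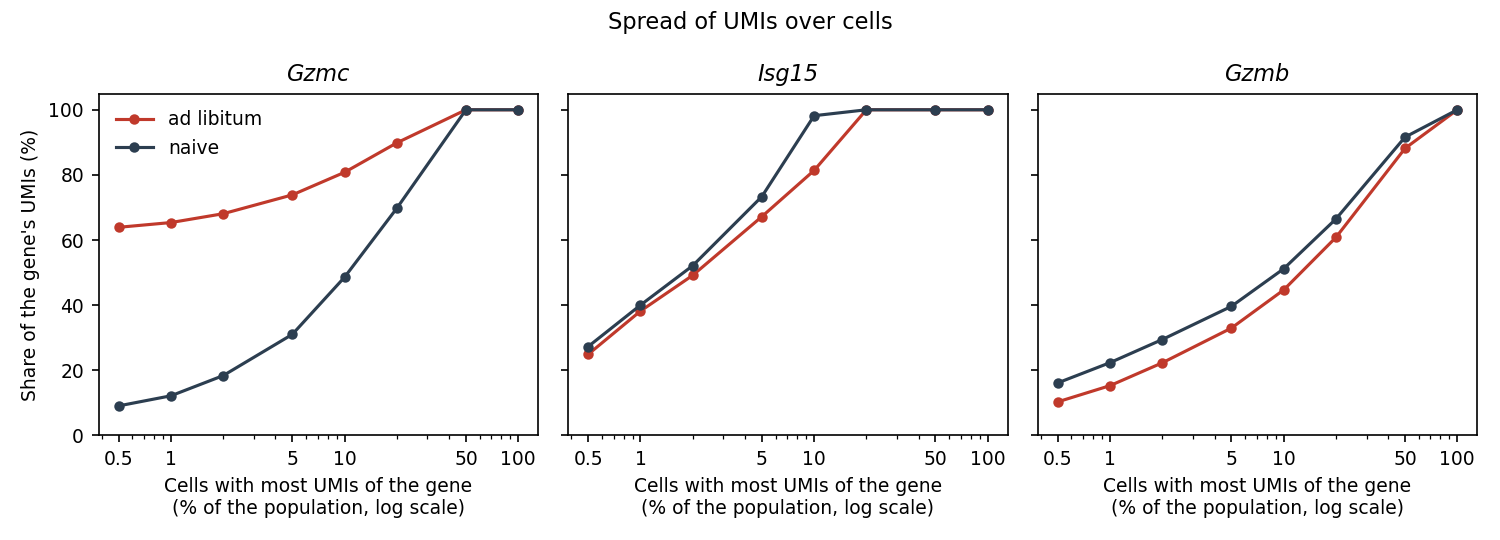
Share of a gene's UMIs (%) held by the cells with most UMIs of that gene, against the share of the population's cells (log scale), for ad libitum (red) and naive (dark blue) cells. For Gzmc the top 1% of ad libitum cells held 65.4% of the UMIs and the top 1% of naive cells 12.1%, while for Isg15 those shares were 38.2% and 40% and for Gzmb 15.3% and 22.3%.

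Chemokine and cytokine genes split. Ccl3, a chemokine that draws in monocytes and T cells (chr11:83647844-83649355, minus strand), stood at 963 CPM (942 to 983) in ad libitum cells and 641 CPM (616 to 666) in naive cells, a log2 ratio of 0.58 (0.52 to 0.65). Fasted and refed cells stood at 587 and 662 CPM, close to naive cells, so ad libitum cells stood apart from the other spleen populations. Its neighbour Ccl4 stood at 991 CPM in ad libitum cells and 839 CPM in naive cells, a ratio of 0.24, and Ccl5 at 21365 and 19957 CPM, a ratio of 0.10. Ifng, the main NK cytokine, stood at 254 CPM in ad libitum cells and 205 CPM in naive cells, a ratio of 0.30. Xcl1, a chemokine for cross-presenting dendritic cells, stood at 485 CPM in ad libitum cells and 500 CPM in naive cells. Ltb, a lymphotoxin subunit, was lower, at 108 CPM in ad libitum cells and 149 CPM in naive cells, a ratio of -0.45 that moved to -0.21 when ad libitum cells were weighted to the naive cluster shares. The median of the 9 measured list members was 0.16, with 6 higher and only Ccl3 past the fold. Outside the list, the low-abundance genes Spp1 (osteopontin) and Vegfa had ratios of 0.77 and 0.57 and stood at 22.8 and 31.8 CPM in ad libitum cells, against 11.3 and 19.8 CPM in naive cells. Without its highest cells the Spp1 ratio was 0.53, since 26.7% of its ad libitum UMIs came from 1 cell. Under the alternatives run, the Vegfa ratio ranged from 0.07 to 0.66.

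Interferon-stimulated genes were mostly higher in ad libitum cells. Isg15, a ubiquitin-like modifier (chr4:156199424-156200818, minus strand), stood at 74.0 CPM (68.4 to 79.9) in ad libitum cells and 42.4 CPM (36.2 to 49.4) in naive cells, a log2 ratio of 0.74 (0.51 to 0.97). Ifi27l2a, an interferon-induced mitochondrial protein gene, stood at 30.2 CPM in ad libitum cells and 10.3 CPM in naive cells, a ratio of 1.20 (0.85 to 1.54) from 267 and 40 UMIs. Only 96 ad libitum and 19 naive cells held Ifi27l2a UMIs, and the top 1% of cells had 57.7% and 75% of them. Irf7, the transcription factor that amplifies interferon production, stood at 62.2 CPM in ad libitum cells and 45.0 CPM in naive cells, and Rtp4 at 34.7 and 22.9 CPM. Of the 19 measured type I interferon-induced genes, 16 were higher in ad libitum cells and 3 were past the fold, and the median was 0.18. It was also 0.18 when ad libitum cells were weighted to the naive cluster shares. The 3 with a ratio below 0 were Ddx58 (-0.13), Ifi203 (-0.02) and Bst2 (-0.01). Isg15 stood at 76.7 CPM in refed cells and 41.7 CPM in fasted cells, and Ifi27l2a at 26.8 and 12.3 CPM, so refed cells lay with the ad libitum ones and fasted cells with the naive ones. Isg15 UMIs sat in few cells on both sides, the top 1% of cells holding 38.2% of them in ad libitum cells and 40% in naive cells.

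The element shown above was found by letters on either strand within 250 bases before the start in 9 of the 15 measured list members that have a promoter entry (60%), against 3.64% of 4314 measured genes with an entry. The 9 were Isg15, Ifi213, Phf11b, Ifi208, Slfn8, Ifi206, Trim30a, Bst2 and Ifi203. Their ratios spanned 0.74 for Isg15 down to -0.02 for Ifi203, so members with the element lay at both ends of the list. Irf7, Xaf1, Irf9, Ifi209, Samd9l and Ddx58 had no match in that window. Ifi203, Ifi206, Ifi208, Ifi209 and Ifi213 are close copies of one another, so the split of reads between them is uncertain. The windows around the match were identical in Ifi213 and Ifi208 and nearly so in Ifi206, so these matches are not independent. As the list was drawn up from interferon-induced genes, the 60% is no result about ad libitum or naive cells.

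Genes that interferon gamma also induces moved less. Of 25 measured members of the interferon-gamma and antigen presentation list, 18 were higher, none passed the fold, and the median was 0.07. H2-Q7, a class I-like gene with close copies, stood at 1263 CPM in ad libitum cells and 1132 CPM in naive cells, and the GTPase gene Ifi47 at 145 CPM in ad libitum cells and 175 CPM in naive cells, a ratio of -0.27.

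Most maturation genes were higher in ad libitum cells, and by less when the mix of clusters was held equal. Of 14 mature NK genes, 12 were higher in ad libitum cells, and the median was 0.21. Cx3cr1, the fractalkine receptor (chr9:119901616-120069879, minus strand), stood at 64.4 CPM (59.2 to 69.9) in ad libitum cells and 37.2 CPM (31.4 to 43.8) in naive cells, a log2 ratio of 0.72 (0.48 to 0.96). Fasted and refed cells lay below both, at 26.0 and 28.4 CPM. Klrg1, an inhibitory receptor of late stages, stood at 165 CPM in ad libitum cells and 126 CPM in naive cells, a ratio of 0.38, and Ly6c2 at 637 and 476 CPM, a ratio of 0.42. Ly6c2 has a near-identical neighbour, so its reads may be split. Irf8, a factor for NK maturation, stood at 480 CPM in ad libitum cells and 377 CPM in naive cells, a ratio of 0.35. Itgam, which encodes CD11b, stood at 160 CPM in ad libitum cells and 148 CPM in naive cells, a ratio of 0.11 with an interval of -0.03 to 0.25. When ad libitum cells were weighted to the naive cluster shares, the median of the list was 0.07, the ratio of Klrg1 0.20, that of Ly6c2 0.26 and that of Itgam -0.01, while Gzmb was at 0.47.

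Of 10 measured immature NK genes, 9 were lower in ad libitum cells, with a median of -0.08. Tcf7, a factor of early stages, stood at 43.5 CPM in ad libitum cells and 62.2 CPM in naive cells, a ratio of -0.47. Cd7 stood at 313 CPM in ad libitum cells and 391 CPM in naive cells, and Cd27 at 87.0 and 108 CPM, with ratios of -0.32 and -0.29. Ikzf2 was the member above 0, at 0.23. The Tcf7 ratio was -0.28 after weighting to the naive cluster shares and 0.07 when the compared clusters were weighted equally. The lineage factors Tbx21 and Eomes had ratios of 0.03 and -0.19, and the median of 19 NK transcription factors was 0.00.

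**Figure D3:**
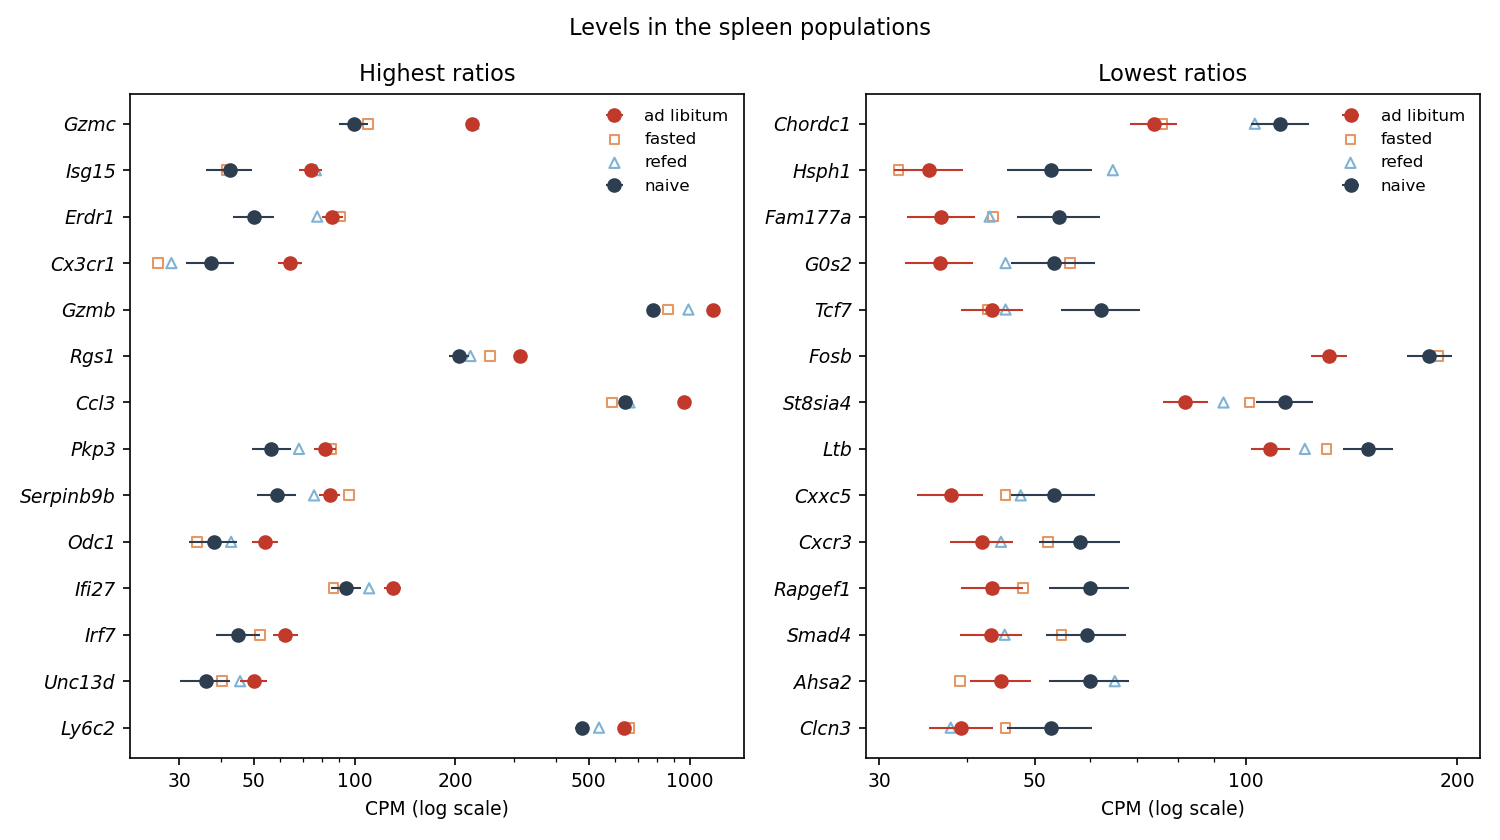
CPM on a log scale in ad libitum (red), fasted (orange squares), refed (blue triangles) and naive (dark blue) spleen cells for the 14 highest and 14 lowest ratios, taken where ad libitum or naive cells reached 50 CPM. Bars on the ad libitum and naive points are 95% counting intervals. Ccl3 and Cx3cr1 were higher in ad libitum cells than in the other populations, while for Gzmc and Isg15 refed cells lay beside the ad libitum point.

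Most activating and Ly49 receptor genes were slightly lower in ad libitum cells, while most inhibitory receptor genes were not. Of 15 measured activating receptors and adaptors, 4 were higher and 11 lower in ad libitum cells, with a median of -0.10 and none past the fold. Cd160 stood at 132 CPM in ad libitum cells and 167 CPM in naive cells, a ratio of -0.33, and the costimulatory receptor gene Cd28 at 31.6 and 41.4 CPM, a ratio of -0.34. Ncr1, which encodes NKp46, stood at 1304 CPM in ad libitum cells and 1239 CPM in naive cells, and Klrb1c, which encodes the sorting marker NK1.1, at 712 and 711 CPM. Of 7 measured Ly49 receptor genes, which recognise class I molecules, 6 were lower and 1, Klra9, was higher. Klra8 stood at 750 CPM in ad libitum cells and 853 CPM in naive cells, and Klra9 at 615 and 548 CPM. Ly49 genes are near-identical copies, and the counting may have split their reads. Of 9 measured inhibitory receptors and checkpoints, 6 were higher and 3 lower, with a median of 0.05. Among them, Klrb1b stood at 80.4 CPM in ad libitum cells and 60.9 CPM in naive cells, a ratio of 0.37.

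Homing receptors moved both ways. Cxcr4, which holds cells in the marrow, stood at 41.3 CPM in ad libitum cells and 27.0 CPM in naive cells, a ratio of 0.54, and fasted cells were higher still at 72.9 CPM. Cxcr3, which leads cells to inflamed tissue, stood at 42.0 CPM in ad libitum cells and 58.1 CPM in naive cells, a ratio of -0.42. S1pr1, an exit receptor, stood at 34.7 CPM in ad libitum cells and 43.9 CPM in naive cells. Of 20 measured trafficking genes, 8 were higher, and the median was -0.05.

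Activation and feedback genes were modestly higher, with exceptions. Rgs1, which damps chemokine receptor signalling, stood at 311 CPM (299 to 322) in ad libitum cells and 205 CPM (191 to 219) in naive cells, a log2 ratio of 0.59 that moved to 0.31 when cells were thinned to 1500 UMIs. The NF-kB inhibitors Nfkbia and Tnfaip3 stood at 376 and 75.7 CPM in ad libitum cells, against 292 and 57.3 CPM in naive cells, with ratios of 0.36 and 0.37. Of 19 NF-kB targets 13 were higher, with a median of 0.14. Of 21 immediate early genes 15 were higher, with a median of 0.11. Zfp36, whose protein degrades cytokine mRNAs, stood at 199 CPM in ad libitum cells and 151 CPM in naive cells, whereas Fosb, an AP-1 subunit gene, stood at 131 CPM in ad libitum cells and 183 CPM in naive cells, a ratio of -0.46. Fasted and refed cells stood at 188 and 183 CPM for Fosb, with the naive ones. Among cytokine feedback genes Cish, a checkpoint of interleukin-15 signalling, had a ratio of 0.52 on 189 ad libitum and 52 naive UMIs, Pim2 0.39, and Pim3 -0.38. The median of the 10 members was 0.15, and -0.045 at a minimum level of 50 CPM. Of 11 measured genes of the TGF-beta response and residency list, 9 were higher. Pmepa1, a feedback inhibitor of the TGF-beta pathway, stood at 28.0 CPM in ad libitum cells and 14.4 CPM in naive cells, from 248 and 56 UMIs. The top 1% of cells held 47.6% and 60.7% of those UMIs. The receptor genes Tgfbr1 and Tgfbr2 were lower, with ratios of -0.24 and -0.31.

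Heat shock genes supplied 2 of the 4 genes past the fold on the lower side, while the rest of that list lay closer to 0. Chordc1, a cochaperone of Hsp90 (chr9:18292125-18317442, plus strand), stood at 74.0 CPM (68.4 to 79.9) in ad libitum cells and 112 CPM (102 to 123) in naive cells, a log2 ratio of -0.57 (-0.74 to -0.40). Hsph1, an exchange factor for Hsp70, stood at 35.3 CPM in ad libitum cells and 52.7 CPM in naive cells, a ratio of -0.52. Dnaja1, an Hsp40 cochaperone, stood at 379 CPM in ad libitum cells and 493 CPM in naive cells, a ratio of -0.37. Hspa8, the constitutive Hsp70, stood at 1297 CPM in ad libitum cells and 1492 CPM in naive cells. Ahsa2, which stimulates the Hsp90 ATPase and is not on the list, stood at 44.7 CPM in ad libitum cells and 59.9 CPM in naive cells. Of 11 measured list members 8 were lower, 2 of them past the fold, and the median was -0.08. Hsp90ab1, at 0.08, was the highest of the 3 members above 0. Refed cells were the highest of the spleen populations for Hsph1, at 64.6 CPM, and fasted cells the lowest, at 32.0 CPM, so ad libitum lay with fasted cells and naive with refed cells.

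**Figure D4:**
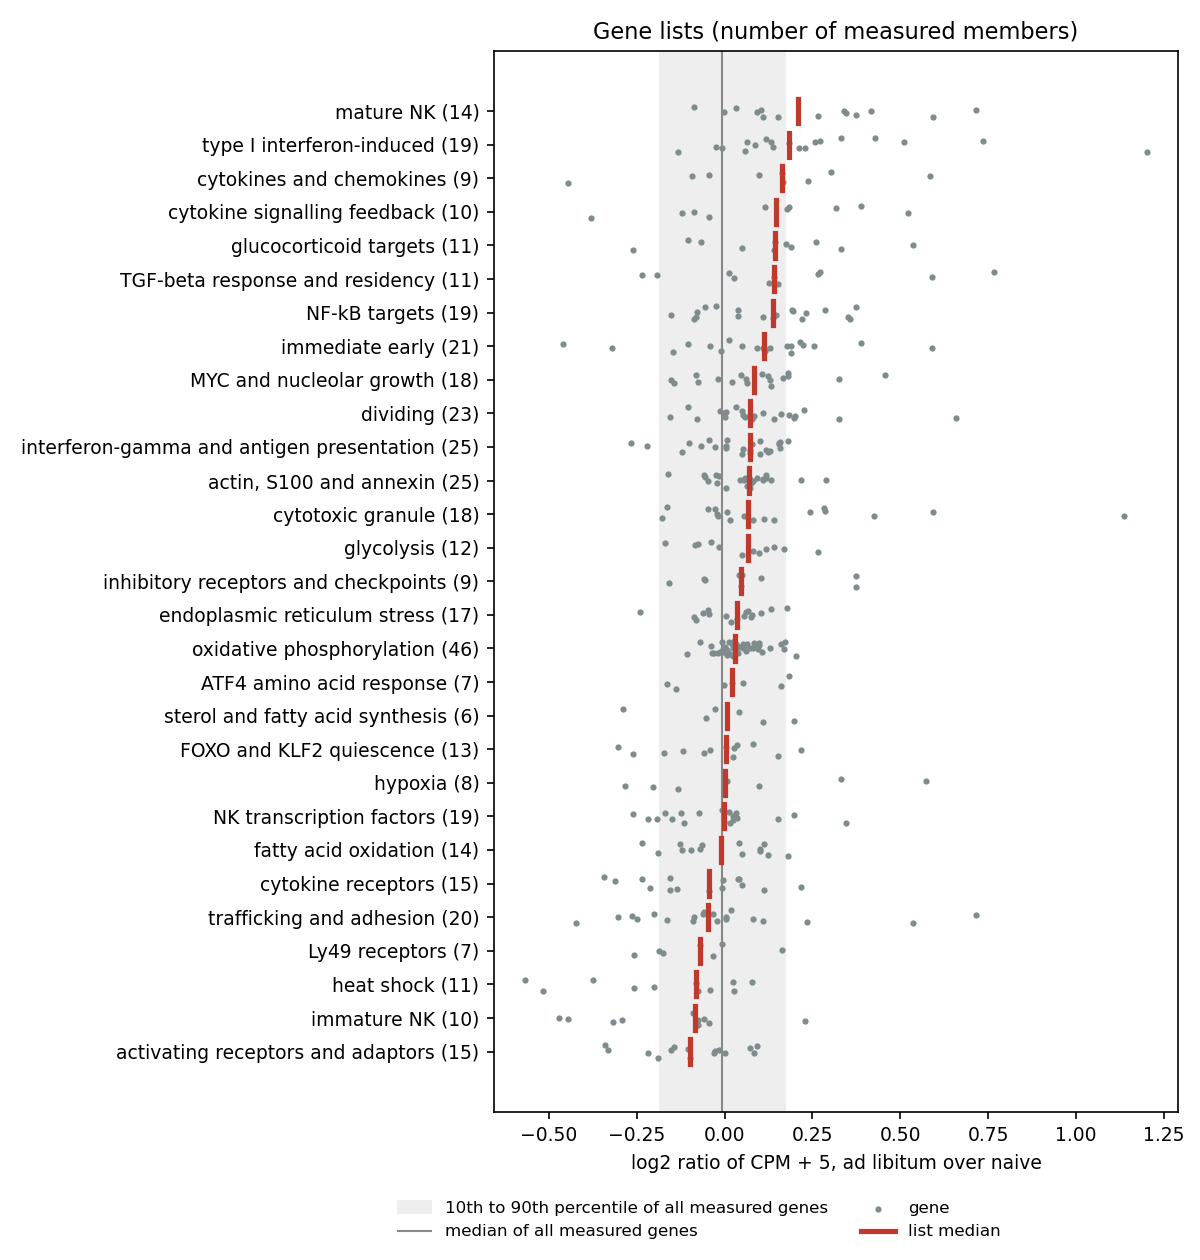
Each grey point is a measured gene of a list, placed by its log2 ratio, ad libitum over naive, and the red bar is the list's median. The shaded band spans the 10th to the 90th percentile of all 5382 genes (-0.18 to 0.17). The band describes single genes and is no test of a list. The medians of the mature NK and type I interferon-induced lists are 0.21 and 0.18, and those of the activating receptor and heat shock lists -0.10 and -0.08.

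The metabolic lists had medians between -0.01 and 0.07. Of 46 oxidative phosphorylation genes 36 were higher with a median of 0.03, of 12 glycolysis genes 7 were higher with a median of 0.07, and the fatty acid oxidation, hypoxia and sterol lists had medians of -0.01, 0.00 and 0.01. Eno1, a glycolytic enzyme gene, stood at 98.6 CPM in ad libitum cells and 81.2 CPM in naive cells. Odc1, the first enzyme of polyamine synthesis, stood at 54.1 CPM in ad libitum cells and 38.0 CPM in naive cells, a ratio of 0.46 that turned to -0.11 with thinned cells. Of 23 division genes 18 were higher with a median of 0.07, which moved to 0.22 without cells with markers of other types, to 0.29 without the clusters not compared, and to 0.65 when the compared clusters were weighted equally. Mki67, a marker of cycling cells, stood at 52.8 CPM in ad libitum cells and 52.7 CPM in naive cells. Pclaf, a replication factor gene, was the division gene past the fold, at 50.7 CPM in ad libitum cells and 30.3 CPM in naive cells.

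Other genes named by their ratios were Erdr1, Pkp3, Serpinb9b, Ifi27 and, on the lower side, Fam177a, G0s2, St8sia4, Cxxc5, Rapgef1, Smad4 and Clcn3. Erdr1, which had no matched gene model and is uncertain, stood at 85.8 CPM in ad libitum cells and 50.1 CPM in naive cells, a ratio of 0.72. Pkp3, a plakophilin gene, had a ratio of 0.50 and Serpinb9b, a granzyme inhibitor gene with close copies, 0.49. In both, fasted cells stood above ad libitum cells, at 85.4 and 96.1 CPM against 81.8 and 84.5 CPM. St8sia4, a polysialyltransferase gene, stood at 82.0 CPM in ad libitum cells and 114 CPM in naive cells, a ratio of -0.45 that moved to -0.14 with equally weighted clusters. G0s2, an inhibitor of fat breakdown, stood at 36.6 CPM in ad libitum cells and 53.2 CPM in naive cells, and Smad4, the shared transducer of TGF-beta signals, at 43.4 and 59.3 CPM.

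The same profile was then taken within the authors' clusters, which hold the mix of clusters fixed. Of 12 clusters, 8 had 20 or more cells of each population. They are called by their numbers, were built by the authors from these cells, and are not replicates. Clusters 0, 8, 10 and 11 were too small and held 43 ad libitum and 23 naive cells. Among clusters 1 to 5, cluster 2 had the least Itgam, at 40.9 CPM in ad libitum cells and 58.8 CPM in naive cells, and cluster 4 had the most Ly6c2, at 1349 and 1132 CPM. Clusters 1 to 5 held 97 to 209 naive cells. Clusters 6, 7 and 9 held 26 to 40 naive cells and 60685 to 91424 naive UMIs. The minimum level here was 50 CPM. Genes past the fold were 1.51% higher and 1.51% lower in cluster 1, 3.02% and 5.29% in cluster 2, 2.55% and 1.87% in cluster 3, 3.46% and 3.40% in cluster 4, and 4.49% and 4.96% in cluster 5. They were 24.2% and 29.0% in cluster 6, 19.6% and 27.8% in cluster 7, and 25.7% and 26.4% in cluster 9. Ratios above 0 made up 45.0%, 46.4%, 52.1%, 45.9% and 48.8% of genes in clusters 1 to 5, and 47.7%, 44.9% and 50.5% in clusters 6, 7 and 9.

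Gzmb was higher in ad libitum cells within all 8 compared clusters. Its CPM in clusters 1 to 5 were 921, 363, 1125, 1703 and 1217 in ad libitum cells and 685, 186, 782, 1204 and 828 in naive cells. The ratios there ran from 0.42 in cluster 1 to 0.94 in cluster 2, and the counting intervals lay above 0 in all 8 clusters. Ccl3 had ratios of 0.71, 0.70, 0.68, 0.69 and 0.50 in clusters 1 to 5, then 0.31, -0.19 and -0.20 in clusters 6, 7 and 9. Chordc1 was lower within all 8, and among clusters 1 to 5 it ran from -0.41 in cluster 3 to -0.85 in cluster 5, where it stood at 74.8 CPM in ad libitum cells and 139 CPM in naive cells. Its counting interval lay below 0 in clusters 1 and 5 alone. Dnaja1 was also lower within all 8, with intervals below 0 in 5, and Fosb was lower within all 8, from -0.19 to -1.22. Eomes, at -0.19 over all cells, was lower within all 8 as well.

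Interferon genes differed by cluster. Isg15 had ratios of 0.93, 1.38 and 1.10 in clusters 1, 2 and 3, and 0.21 and 0.05 in clusters 4 and 5. In cluster 2 it stood at 56.1 CPM in ad libitum cells and 18.5 CPM in naive cells, from 59 and 11 UMIs. Irf7 was highest by ratio among clusters 1 to 5 in cluster 3, at 1.12, and lower in cluster 4, at -0.38. The list's medians in clusters 1 to 5 were 0.21, 0.16, 0.25, 0.05 and -0.15, and in clusters 6, 7 and 9, on few UMIs, -0.61, 0.81 and 0.22. Division genes also differed: the list's medians were 0.04, 0.12, 0.07, -0.05 and 0.44 in clusters 1 to 5, with 11 of 12 measured members higher in cluster 5. They were 0.57, 1.68 and 1.25 in clusters 6, 7 and 9, where 22 of 24, 15 of 15 and 21 of 21 were higher. Members had to reach 50 CPM in only 1 population, so they could be counted through the ad libitum side alone. Clusters not compared held 38.5% of the Pclaf, 27.9% of the Cdca3 and 33.2% of the Ccnb2 UMIs of ad libitum cells. In naive cells they held more, at 50.8%, 65.2% and 58.3%. These differences between clusters were not tested.

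**Figure D5:**
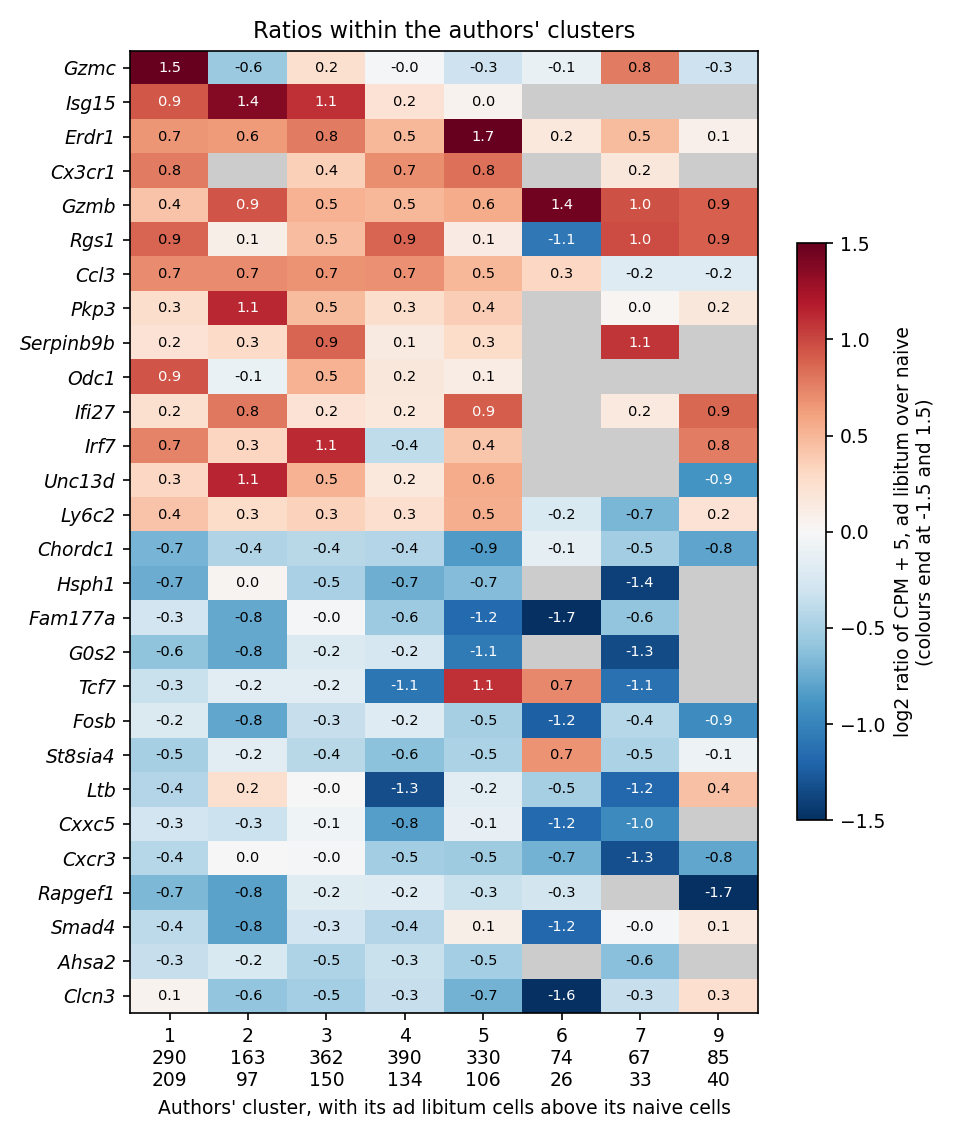
Log2 ratios, ad libitum over naive, of the 28 named genes (rows) within the 8 compared clusters (columns), with the ad libitum and naive cells of each cluster under its number. Grey marks 3 or fewer UMIs in either population. Gzmb is red in every column and Chordc1 and Fosb are blue in every column, while Gzmc and Tcf7 change sign between clusters.

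The leading genes of each cluster were partly those of the whole profile. In cluster 1, Plac8 stood at 128 CPM in ad libitum cells and 42.0 CPM in naive cells, and Rgs1 at 414 and 224 CPM, while the Hsp90 and Hsp70 partner genes Chordc1, Cacybp and Dnajb1 had the lowest ratios, at -0.70, -0.68 and -0.67. In cluster 2 the highest were Ccl4 (1.08), Gzmb (0.94) and Ndufaf8 (0.89), and the lowest Fosb, Zfp512 and Vdac1, at -0.78, -0.77 and -0.76. In cluster 3 they were Serpinb9b (0.88), Ccl4 (0.83) and Nfkbia (0.74) against Klra1 (-0.75), Foxp1 (-0.58) and Rab11b (-0.54). Klra1 had the opposite sign in cluster 1, at 0.42. In cluster 4 the highest were Rgs1 (0.88), Tnfaip3 (0.80) and Smad7 (0.78), the lowest Ccr2 (-0.70), Ik (-0.66) and Tox4 (-0.65). In cluster 5 Ifi27 (0.91), Bcl10 (0.89) and H2afx (0.86) led, and Chordc1 (-0.85), Pbxip1 (-0.83) and Maf1 (-0.78) were lowest. Ccr2, a receptor for leaving the marrow, stood at 140 CPM in ad libitum cells and 232 CPM in naive cells of cluster 4.

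In clusters 6, 7 and 9 the rule took genes with 0 to 14 UMIs in 1 population. The division genes among them came from few cells. Cenpf had 42 UMIs in 14 ad libitum cells and 1 UMI in naive cells of cluster 6, and 25 UMIs in 6 ad libitum cells and 0 in naive cells of cluster 9. Mki67 had 31 UMIs in 7 ad libitum cells and 1 UMI in naive cells of cluster 7, and 21 UMIs in 5 ad libitum cells and 0 in naive cells of cluster 9. Over all cells the Mki67 ratio was 0.00 (-0.22 to 0.23). The others taken there were March5, Ifi27, BC005561, Fbxw7 and Cisd1 in cluster 6, Etfb, Top2a, Tgfbr1, Alkbh5 and Nde1 in cluster 7, and Rnf157, Mad2l1, Gtf3a and Usp33 in cluster 9. No fold is given for the genes the rule took in these 3 clusters.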

How the data were processed

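The deposited matrix holds UMI counts per cell and gene, which the authors made with seqc, per the labels' protocol. The submitters' processing notes name mm10. The hashtag classification, the population names and the cluster numbers are the authors' deposited labels (no unit). The methods of cell filtering, hashtag classification and clustering were not stated. Of 13118 cells, 13085 were classified, and the 5606 called doublets were left out, although doublets within 1 population carry 1 hashtag and stay. Loci and symbols were matched to GENCODE M21, and 16278 of 16789 symbols matched.

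Counts were summed per population and scaled to CPM (a sum of 1000000) with Python 3.11.15, numpy 2.4.6, scipy 1.17.1 and pandas 2.3.3. A difference is the log2 ratio of CPM + 5. Intervals are 95% exact Poisson (levels) and exact binomial given both totals (ratios), and cover counting error only. Within clusters the minimum was 50 CPM. The computation was tested on simulated data. No test was run, since each population is 1 sample. TMM factors came from edgeR 4.0.16.

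The members, gene lists and rules were chosen with earlier results of these data known. Named genes are the 14 highest and 14 lowest ratios at 50 CPM or more whose counting interval left out no change and which did not rest on 1 cell, up to 4 members of each of 29 lists, genes of NK function, and the 3 highest and lowest per cluster at 100 CPM or more. Unnamed gene models, mitochondrial, ribosomal protein and receptor-rearranged genes and markers of other cell types were left out. Alternatives changed scaling, pseudocount, minimum level, cells kept, depth and cluster weights.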

Additional observations from a re-analysis of the deposited data

How the results depend on the processing

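Counts of genes past the fold are thresholds on small differences and moved with most settings. Against 20 higher and 4 lower, a pseudocount of 1 CPM gave 37 and 20 and one of 20 CPM gave 8 and 0. A minimum level of 10 CPM gave 36 and 18, of 50 CPM 8 higher, and none 71 and 38. The lower count was 10 without cells with markers of other types, 21 for the mean over cells, 8 without the 5% of cells with most UMIs and 7 without the clusters not compared, an alternative chosen after seeing the data. Thinned cells gave 138 and 152, and equally weighted clusters 171 and 191. Summed over clusters 1 to 5, the 429 higher and 483 lower gene-cluster pairs became 106 and 80 at a minimum level of 100 CPM, 244 and 212 with a pseudocount of 20 CPM, and 1654 and 2051 in thinned cells, and the lower count was 319 without each gene's highest cell. Gzmc turned to -0.14 without the cells with most UMIs. The cytokine feedback median turned to -0.045 at a minimum of 50 CPM and to -0.033 in thinned cells. The causes were not tested. Thinning left fewer UMIs per cell, and equal weighting gave the small clusters 6, 7 and 9 the same weight as the larger ones. The medians of the mature NK, type I interferon-induced and NF-kB lists stayed above 0 under every alternative run that combined the clusters. Those of the immature NK, activating receptor, Ly49 and heat shock lists stayed below 0 under the same alternatives. Single clusters differed. Of the 8 compared, the median was above 0 in 7 for mature NK, 6 for type I interferon-induced and 5 each for NF-kB and immediate early genes. It was above 0 in 2 for immature NK, 1 each for Ly49 and heat shock and 0 for activating receptor genes. In cluster 2 the NF-kB, immature NK and heat shock medians were -0.14, 0.16 and 0.05. No paired analysis was possible because each population is 1 sample with no replicate number.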
